A study of Homo sapiens with 18 samples.

Results

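The genes described here act in homologous recombination, in the Fanconi anaemia pathway and in the DNA damage checkpoint. They are 46 listed genes, and 40 of them have a probe with that single gene symbol among the 21448 probes of the value table, where 17709 probes carry 1 symbol. BRCA2, RAD54B, RBBP8, FANCA, FANCD2 and ATRIP have no such probe and are not analysed here. Each of the 40 genes is read by 1 probe. Signals are log2 values, changes are differences of group means on that scale, and n is 6 arrays per group throughout.

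The cells are OCI-AML3, an established human acute myeloid leukaemia line whose genotype the labels give as wildtype. They received RG7112 at 2 µM, HDM201 at 500 nM or the solvent DMSO, each for 24 h, and each group holds 6 arrays. Both compounds are named in the series as inhibitors of MDM2, the ubiquitin ligase that marks p53 for degradation. A single line stands for the disease, each compound was used at 1 dose and 1 time, and the labels call the replicates biological without saying how the cultures were separated. The p-values therefore measure the spread between these samples.

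Homologous recombination repairs a broken chromosome by copying the sister chromatid. The broken ends are cut back to single strands, BRCA1, BRCA2 and PALB2 prepare these strands to invade the intact copy, and helicases and nucleases later separate the joined molecules. The Fanconi pathway detects crosslinks between the DNA strands and, through ubiquitin on FANCI and FANCD2, hands them to nucleases and to recombination, while ATM and ATR signal the damage to CHEK2 and CHEK1. Many of these genes are known to be transcribed mainly in S and G2 phase in dividing cells. Active p53 induces CDKN1A, whose product p21 holds the retinoblastoma family proteins in their repressive state, and the DREAM complex and E2F factors then keep many cell cycle genes low.

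Most of these genes were lower after either compound. Under RG7112, 31 of the 40 genes fell, 1 rose and 8 did not pass the test, where 9.61% of all 21448 probes fell and 7.9% rose. Under HDM201, 30 fell, 1 rose and 9 did not pass, where 9.64% of all probes fell and 9.16% rose. A gene is said to have passed, fallen or risen when its p from limma, adjusted over all probes by the method of Benjamini and Hochberg, lay under 0.05.

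The falls were large for many of the genes. A fall of at least 2-fold was measured for 16 genes under RG7112 (1.33% of all probes) and for 19 under HDM201 (1.71% of all probes). No gene rose by 2-fold, while 1.21% of all probes did so under RG7112 and 1.53% under HDM201. The median change of the 40 genes was -0.89 under RG7112, with a range of -1.92 to 0.73, and the median of all probes was 0.03. Under HDM201 the median was -0.93, with a range of -2.24 to 0.77, and the median of all probes was 0.02. All 6 RG7112 arrays lay below all 6 DMSO arrays for 24 genes (5.61% of all probes), and all 6 HDM201 arrays did so for 28 genes (6.92% of all probes).

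Both compounds were set against the same DMSO arrays, so the comparisons are not independent of each other, and each one's values are given side by side. The gene that rose was RAD51C. PALB2, RAD51D, RAD50, MUS81, FAN1, FANCF, ATM and ATR, 8 genes, did not pass under RG7112. Under HDM201 these genes and SLX4 did not pass, and the difference of SLX4 between the compounds, 0.14, did not pass either.

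**Figure D1:**
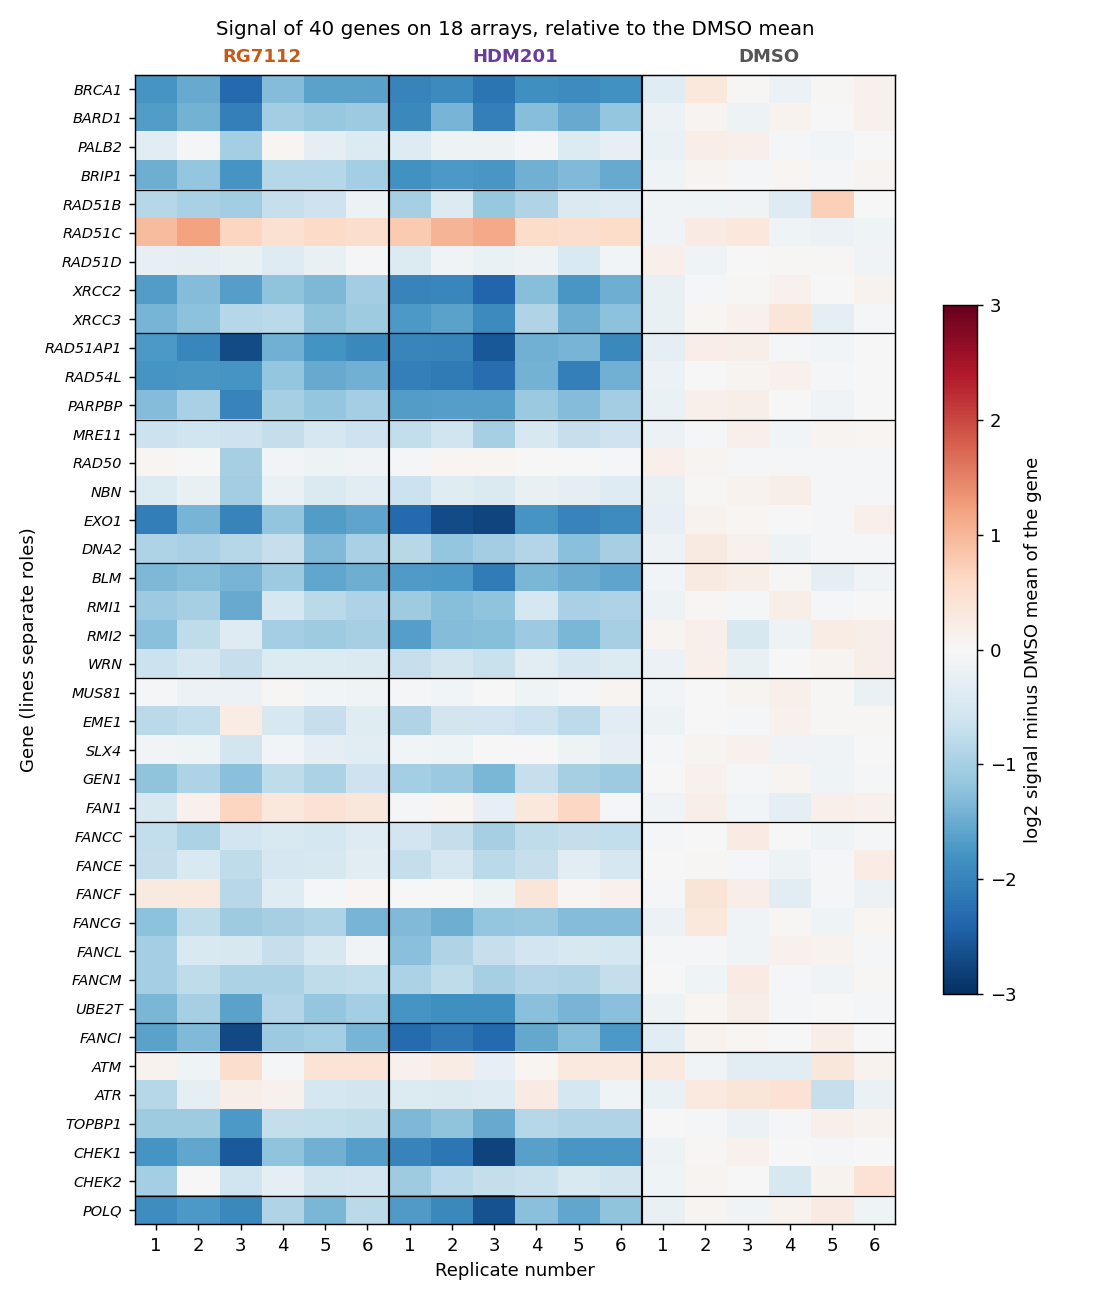
Log2 signal of 40 genes (rows, grouped by role) on 18 arrays (columns, by replicate number within RG7112, HDM201 and DMSO), each minus the DMSO mean of that gene. Blue marks values below the DMSO mean and red values above it; most rows are blue on all 12 arrays with a compound, RAD51C is red, and RG7112 replicate 3 is darker than its group for genes such as FANCI and RAD51AP1.

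Promoter sequences of 5 of these genes are shown because cell cycle genes are known for a few short promoter elements. The windows run from 250 bases before to 50 bases after a transcription start, in RefSeq on GRCh38.p14, and are printed 5′ to 3′ on the gene's strand. POLQ, BRIP1 and UBE2T have the largest mean fall among the genes with a match to a cell cycle homology region element (CHR, searched as TTTGAA and TTCGAA). RAD51C is the gene that rose. EXO1 was chosen after the motif counts were seen, as the gene with the largest fall under HDM201 and a match to an E2F form. Capitals mark every match on either strand to a CHR form, to CCAAT, the core bound by NF-Y, or to an E2F form (TTTGGCGC, TTTGCCGC, TTTCGCGC or TTTCCCGC). TTCAAA and ATTGG are the reverse strands of TTTGAA and CCAAT, and no 2 matches overlap in these windows.
POLQ (chr3:121545939-121546238, minus strand): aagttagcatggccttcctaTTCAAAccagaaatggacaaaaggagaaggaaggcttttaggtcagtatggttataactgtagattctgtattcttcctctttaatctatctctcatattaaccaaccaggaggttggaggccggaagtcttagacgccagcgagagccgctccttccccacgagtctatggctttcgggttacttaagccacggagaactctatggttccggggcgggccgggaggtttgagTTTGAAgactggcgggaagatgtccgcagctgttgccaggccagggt
BRIP1 (chr17:61863479-61863778, minus strand): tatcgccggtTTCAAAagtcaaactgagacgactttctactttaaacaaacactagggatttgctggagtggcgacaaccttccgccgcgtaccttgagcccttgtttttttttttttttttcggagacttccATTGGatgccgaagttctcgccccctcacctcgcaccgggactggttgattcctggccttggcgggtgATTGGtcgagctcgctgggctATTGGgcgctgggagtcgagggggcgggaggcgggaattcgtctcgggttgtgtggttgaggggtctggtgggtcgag
UBE2T (chr1:202341887-202342186, minus strand): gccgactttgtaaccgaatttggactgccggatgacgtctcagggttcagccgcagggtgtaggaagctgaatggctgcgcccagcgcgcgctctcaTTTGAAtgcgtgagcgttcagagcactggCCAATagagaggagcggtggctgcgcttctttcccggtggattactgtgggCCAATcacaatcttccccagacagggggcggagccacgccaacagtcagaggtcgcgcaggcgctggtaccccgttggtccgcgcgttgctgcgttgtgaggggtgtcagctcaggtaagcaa
EXO1 (chr1:241847954-241848253, plus strand): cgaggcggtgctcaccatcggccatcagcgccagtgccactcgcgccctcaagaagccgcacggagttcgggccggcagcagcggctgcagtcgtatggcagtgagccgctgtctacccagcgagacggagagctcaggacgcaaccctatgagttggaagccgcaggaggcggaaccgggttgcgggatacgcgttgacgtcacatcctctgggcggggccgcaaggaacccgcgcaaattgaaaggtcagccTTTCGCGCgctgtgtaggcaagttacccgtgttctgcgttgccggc
RAD51C (chr17:58692323-58692622, plus strand): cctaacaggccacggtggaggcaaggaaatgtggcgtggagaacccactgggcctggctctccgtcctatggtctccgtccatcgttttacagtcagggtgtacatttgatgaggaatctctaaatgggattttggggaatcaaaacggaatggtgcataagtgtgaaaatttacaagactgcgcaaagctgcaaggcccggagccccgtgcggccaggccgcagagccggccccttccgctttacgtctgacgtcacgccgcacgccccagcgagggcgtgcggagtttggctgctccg

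POLQ has 1 CHR match just after the start, at base 4 when the start is base 1, and another far upstream. In UBE2T a CHR match begins at position -153, with CCAAT matches at -124 and -73, counting back from the start. BRIP1 has 3 CCAAT matches, all on the reverse strand, and 1 CHR match that begins at -240. EXO1 holds TTTCGCGC at base 5, and RAD51C holds none of the searched forms in this window. RefSeq lists 2 starts each for EXO1 and RAD51C, and the first listed with the stated property is printed.

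The 3 motifs were counted in all listed windows of each gene, so that a gene with several starts counts once. A promoter was found for 35 of the 40 genes. An E2F form was present in 6 of these 35 genes (17.1%), against 3.99% of all 27305 genes of the promoter table, and the 6 were EXO1, FANCC, GEN1, RMI1, TOPBP1 and XRCC2. All 6 fell under both compounds, and of all 35 genes with a promoter, these included, 25 did. CCAAT was present in 51.4% of the 35 genes, against 39.7% of all genes, and a CHR form in 7 of the 35 genes, a share close to the 19.5% of all genes. Of the 25 genes that fell under both compounds 24.0% held an E2F form, 56.0% CCAAT and 24.0% a CHR form. Among the 8 genes that passed in neither comparison, 0 held an E2F form, 4 held CCAAT and 1, ATM, held a CHR form. These are matches of letters in one window per start; binding of a factor was not measured.

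BRCA1, the ubiquitin ligase and scaffold that starts recombination, was among the genes with the largest falls. Its signal was 6.14 to 7.18 with a median of 6.88 on the RG7112 arrays, 6.29 to 6.67 with a median of 6.59 on the HDM201 arrays, and 8.13 to 8.80 with a median of 8.52 on the DMSO arrays. Neither group of treated arrays overlapped the DMSO arrays. BRCA1 fell 3.23-fold under RG7112 (log2 change -1.69 ± 0.14 SE, adjusted p = 9.07e-08) and 3.84-fold under HDM201 (-1.94 ± 0.14 SE, adjusted p = 6.06e-09).

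Of the measured partners of BRCA1, BARD1 and BRIP1 fell and PALB2 did not pass. BARD1, which forms the active ligase with BRCA1, fell 2.64-fold under RG7112 and 2.94-fold under HDM201. BRIP1, a helicase that binds BRCA1, fell 2.28-fold under RG7112 and 3.02-fold under HDM201. PALB2, which links BRCA1 to BRCA2, changed by -0.35 under RG7112 (adjusted p = 0.0822) and by -0.23 under HDM201 (adjusted p = 0.286). PALB2 passed under RG7112 when RG7112 replicate 2 (adjusted p = 0.0472) or RG7112 replicate 4 (adjusted p = 0.0272) was left out. Without RG7112 replicate 3, where PALB2 was lowest at 8.02, its change under RG7112 was -0.21 (adjusted p = 0.168). Of these 4 measured genes 3 fell under each compound, and the differences between the genes were not tested.

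XRCC2, XRCC3, RAD51B, RAD51C and RAD51D, whose products form complexes that act early in recombination, did not change as one: under each compound 3 fell, 1 rose and RAD51D did not pass. XRCC2 was 8.08 to 8.70 (median 8.41) under RG7112, 7.36 to 8.46 (median 7.89) under HDM201 and 9.52 to 9.87 (median 9.76) under DMSO. No array of either compound reached the DMSO range. The fall was 2.58-fold under RG7112 (-1.37 ± 0.15 SE, adjusted p = 1.81e-06) and 3.51-fold under HDM201 (-1.81 ± 0.15 SE, adjusted p = 3.30e-08). XRCC3 fell 2.13-fold under RG7112 and 2.78-fold under HDM201.

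RAD51C, which is shared by both of the complexes these proteins form, was the gene that rose. Its signal was 10.40 to 11.17 (median 10.56) under RG7112, 10.47 to 11.09 (median 10.63) under HDM201 and 9.77 to 10.26 (median 9.84) under DMSO. Every array with a compound lay above every DMSO array, which held for 4.29% of all probes under RG7112 and 6.63% under HDM201. RAD51C rose 1.66-fold under RG7112 (0.73 ± 0.14 SE, adjusted p = 8.46e-04) and 1.70-fold under HDM201 (0.77 ± 0.14 SE, adjusted p = 4.01e-04). It rose in each of the 31 other settings tried, those without 1 array included.

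RAD51B fell 1.65-fold under RG7112 (adjusted p = 0.00671) and 1.64-fold under HDM201 (adjusted p = 0.00625). On DMSO replicate 5 it reached 7.49, against 6.39 to 6.79 on the other DMSO arrays, and without that array its change was -0.58 under RG7112 and -0.57 under HDM201. RAD51D, the remaining gene of the group, changed by -0.23 under RG7112 (adjusted p = 0.0662) and by -0.24 under HDM201 (adjusted p = 0.0563). RAD51D passed under HDM201 when DMSO replicate 2 (adjusted p = 0.0491), RG7112 replicate 3 (0.0419), RG7112 replicate 6 (0.0492), HDM201 replicate 2 (0.0497) or HDM201 replicate 6 (0.0409) was left out. Under RG7112 it passed without RG7112 replicate 6 (adjusted p = 0.0356). The change of RAD51D itself stayed between -0.28 and -0.19 in all settings, small beside the falls of XRCC2 and XRCC3.

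All 3 measured genes of strand exchange fell under both compounds. RAD51AP1, which helps the invading strand pair with its partner, was 5.55 to 6.78 (median 6.36) under RG7112, 5.68 to 6.83 (median 6.28) under HDM201 and 7.95 to 8.42 (median 8.22) under DMSO. The lowest DMSO array lay above the highest array of either compound. Under RG7112 its fall of 3.79-fold was the largest of the 40 genes (-1.92 ± 0.18 SE, adjusted p = 3.83e-07), and under HDM201 it fell 3.69-fold (-1.88 ± 0.18 SE, adjusted p = 2.36e-07). RAD54L, a motor protein that drives the exchange, fell 2.97-fold under RG7112 and 3.72-fold under HDM201. PARPBP, an inhibitor of recombination, fell 2.37-fold under RG7112 and 2.65-fold under HDM201.

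**Figure D2:**
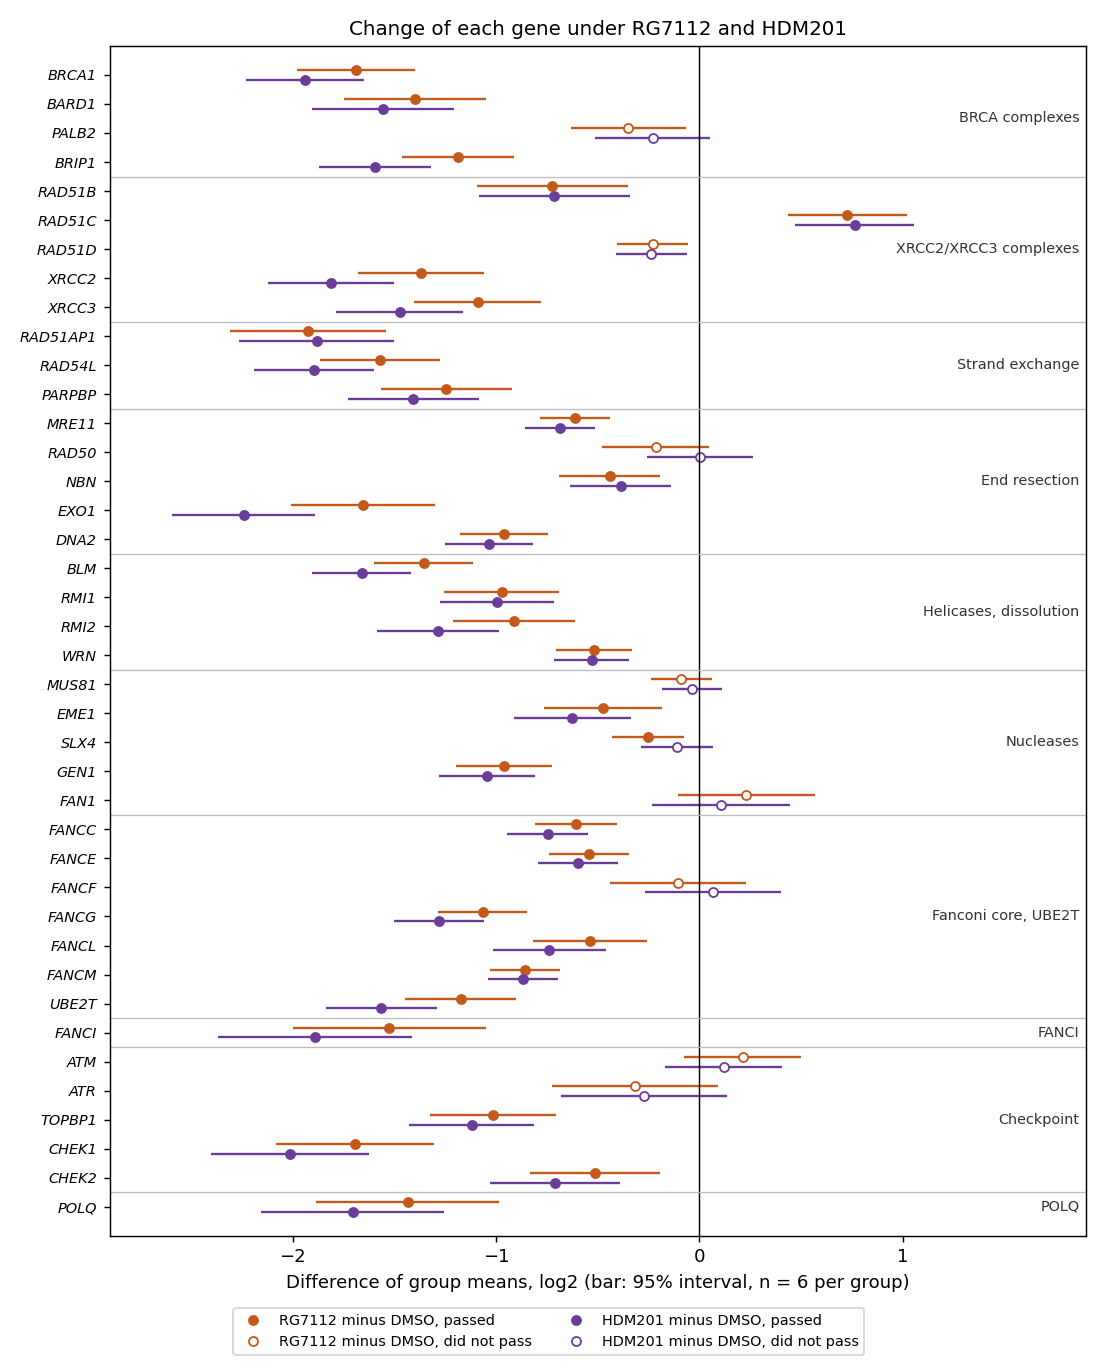
Difference of group means for each of the 40 genes, in log2 units, for RG7112 minus DMSO (orange) and HDM201 minus DMSO (purple), with 95% intervals and n = 6 arrays per group. Filled points passed the test and open points did not; RAD51C is the only filled point right of 0, and EXO1 under HDM201 lies farthest left at -2.24.

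Of the 5 measured resection genes 4 fell under each compound, and RAD50 did not pass. EXO1, the exonuclease of long-range resection, was 7.11 to 7.999 (median 7.55) under RG7112, 6.42 to 7.42 (median 7.004) under HDM201 and 8.92 to 9.33 (median 9.22) under DMSO. The treated arrays all lay below the DMSO arrays, with a gap of close to 1 log2 unit. EXO1 fell 3.15-fold under RG7112 (-1.65 ± 0.17 SE, adjusted p = 8.84e-07) and 4.73-fold under HDM201 (-2.24 ± 0.17 SE, adjusted p = 1.10e-08), the largest fall of the 40 genes there. DNA2, the nuclease that works beside BLM, fell 1.94-fold under RG7112 and 2.04-fold under HDM201.

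MRE11, RAD50 and NBN form the complex that finds and first trims the broken end. MRE11 fell 1.53-fold under RG7112 and 1.61-fold under HDM201. NBN fell 1.36-fold under RG7112 (adjusted p = 0.0132) and 1.31-fold under HDM201 (adjusted p = 0.0257). Under HDM201 NBN no longer passed without DMSO replicate 3 (adjusted p = 0.0552), DMSO replicate 4 (0.0657), HDM201 replicate 1 (0.0718) or HDM201 replicate 3 (0.0509). RAD50 changed by -0.21 under RG7112 (adjusted p = 0.265) and by 0.00 under HDM201 (adjusted p = 0.989). On RG7112 replicate 3 the RAD50 signal was 9.88, against 10.72 to 10.92 on the other RG7112 arrays, and without that array the change under RG7112 was -0.06.

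BLM and its partners RMI1 and RMI2 dissolve joined molecules without crossing over, and all fell. BLM, the helicase lost in Bloom syndrome, was 7.59 to 8.08 (median 7.78) under RG7112, 7.05 to 7.78 (median 7.52) under HDM201 and 8.88 to 9.43 (median 9.13) under DMSO. The groups did not overlap with DMSO. It fell 2.56-fold under RG7112 (-1.36 ± 0.12 SE, adjusted p = 1.41e-07) and 3.16-fold under HDM201 (-1.66 ± 0.12 SE, adjusted p = 4.98e-09). RMI1 fell 1.96-fold under RG7112 and 1.99-fold under HDM201, and RMI2 fell 1.88-fold under RG7112 and 2.44-fold under HDM201. WRN, the helicase of Werner syndrome, fell less, by 1.43-fold under RG7112 and 1.44-fold under HDM201.

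The structure-specific nucleases changed least as a set, with a median change of -0.25 under RG7112 and -0.11 under HDM201. GEN1, which cuts Holliday junctions, had the largest fall among them. It was 7.30 to 7.94 (median 7.61) under RG7112, 7.18 to 7.88 (median 7.51) under HDM201 and 8.43 to 8.69 (median 8.54) under DMSO, again with no overlap. GEN1 fell 1.94-fold under RG7112 (-0.96 ± 0.11 SE, adjusted p = 4.57e-06) and 2.06-fold under HDM201 (-1.04 ± 0.11 SE, adjusted p = 9.12e-07).

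MUS81 and EME1 encode the subunits of 1 nuclease, of which EME1 passed and MUS81 did not. EME1 fell 1.39-fold under RG7112 (adjusted p = 0.0208) and 1.54-fold under HDM201 (adjusted p = 0.00241), and under RG7112 it missed the threshold without RG7112 replicate 1 (adjusted p = 0.0580). MUS81 changed by -0.09 under RG7112 (95% interval -0.24 to 0.06) and by -0.04 under HDM201 (-0.19 to 0.11). The difference between the 2 genes was not tested. FAN1, a nuclease of crosslink repair, changed by 0.23 under RG7112 (adjusted p = 0.355) and by 0.11 under HDM201 (adjusted p = 0.740).

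SLX4 is the scaffold on which several of these nucleases assemble. It changed by -0.25 under RG7112 (adjusted p = 0.0458) and by -0.11 under HDM201 (adjusted p = 0.449). The call under RG7112 was lost in 17 of 31 other settings. Among these, leaving out DMSO replicate 1, 2, 3, 4 or 6, RG7112 replicate 3, 5 or 6, or HDM201 replicate 1, 2 or 5 gave adjusted p between 0.0508 and 0.103. Without RG7112 replicate 3 its change was -0.19.

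UBE2T, FANCI and the measured genes of the Fanconi core fell under both compounds, with FANCF as the exception. UBE2T, the enzyme that hands ubiquitin to FANCD2 and FANCI, was 8.78 to 9.52 (median 9.30) under RG7112, 8.54 to 9.14 (median 8.81) under HDM201 and 10.23 to 10.56 (median 10.38) under DMSO. The 3 HDM201 replicates numbered 1 to 3 were the lowest of all arrays, and no treated array reached the DMSO range. UBE2T fell 2.26-fold under RG7112 (-1.17 ± 0.13 SE, adjusted p = 2.30e-06) and 2.96-fold under HDM201 (-1.56 ± 0.13 SE, adjusted p = 3.90e-08).

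Of the 6 other measured genes of the Fanconi core 5 fell under each compound. FANCG fell 2.09-fold under RG7112 and 2.43-fold under HDM201, and FANCM, the translocase that brings the core to chromatin, fell 1.81-fold under RG7112 and 1.82-fold under HDM201. The FANCM probe was dim, with mean signals of 4.52 under RG7112, 4.51 under HDM201 and 5.38 under DMSO. For comparison, HBB, an erythroid marker, had a mean of 4.99. The fold change of FANCM is therefore less certain than that of a bright probe. FANCL, the ubiquitin ligase subunit, fell 1.45-fold under RG7112 and 1.67-fold under HDM201. FANCC fell 1.52-fold under RG7112 and 1.68-fold under HDM201, and FANCE 1.46-fold under RG7112 and 1.51-fold under HDM201. FANCF, an adaptor of the core, changed by -0.10 under RG7112 (95% interval -0.44 to 0.23) and by 0.07 under HDM201 (-0.27 to 0.40). The sign under RG7112 turned without RG7112 replicate 3, with a change of 0.04, so no direction can be given for FANCF.

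FANCI, one of the pair of proteins that receive ubiquitin, was 5.18 to 6.87 (median 6.53) under RG7112, 5.57 to 6.604 (median 5.95) under HDM201 and 7.54 to 8.08 (median 7.92) under DMSO. The treated arrays did not overlap the DMSO arrays, and the lowest value, 5.18, came from RG7112 replicate 3. FANCI fell 2.88-fold under RG7112 (-1.52 ± 0.23 SE, adjusted p = 6.54e-05) and 3.70-fold under HDM201 (-1.89 ± 0.23 SE, adjusted p = 3.30e-06). Without RG7112 replicate 3 its change under RG7112 was -1.29.

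**Figure D3:**
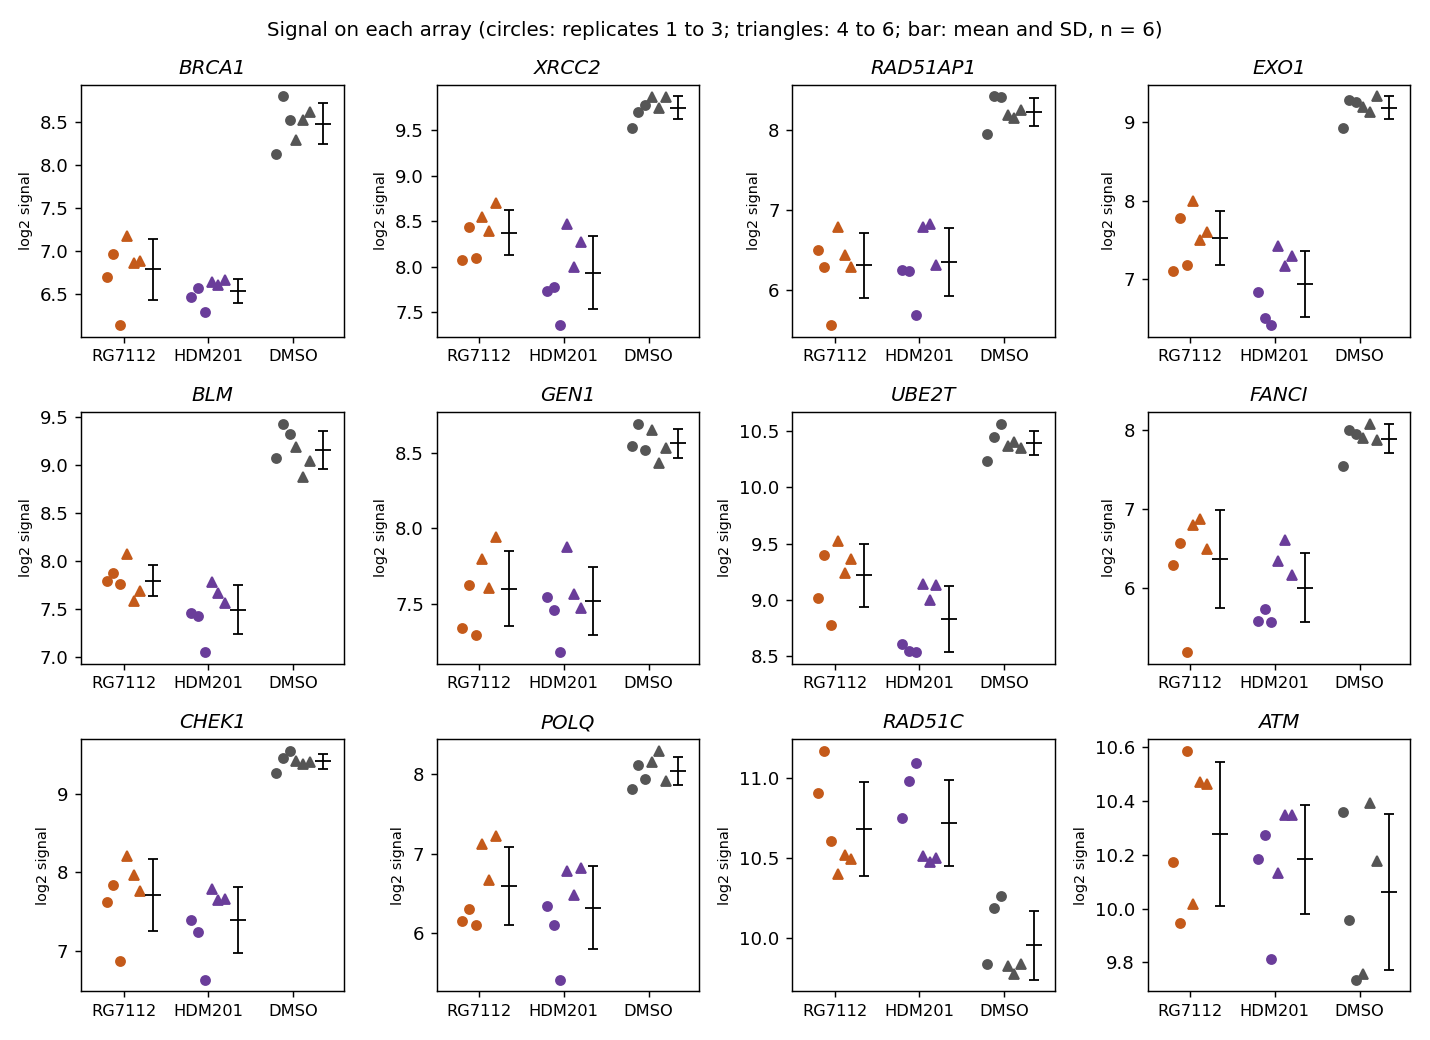
Log2 signal of 12 genes on each array, by group (RG7112, HDM201, DMSO); circles are replicates 1 to 3, triangles replicates 4 to 6, and the bar is the mean with SD (n = 6). In 10 panels all arrays with a compound lie below all DMSO arrays, in RAD51C all lie above, and in ATM the groups overlap; each panel has its own vertical scale, which does not start at 0.

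Within the checkpoint, the kinases ATM and ATR did not pass, and the kinases CHEK1 and CHEK2 below them fell. The differences between these genes were not tested. CHEK1, the effector kinase of ATR, was 6.88 to 8.20 (median 7.80) under RG7112, 6.64 to 7.79 (median 7.52) under HDM201 and 9.26 to 9.54 (median 9.41) under DMSO. The gap to DMSO was over 1 log2 unit for each array. CHEK1 fell 3.23-fold under RG7112 (-1.69 ± 0.19 SE, adjusted p = 2.04e-06) and 4.03-fold under HDM201 (-2.01 ± 0.19 SE, adjusted p = 1.28e-07). TOPBP1, the activator of ATR, fell 2.02-fold under RG7112 and 2.17-fold under HDM201.

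CHEK2, the effector kinase of ATM, fell 1.43-fold under RG7112 (adjusted p = 0.0239) and 1.63-fold under HDM201 (adjusted p = 0.00193). Under RG7112 CHEK2 did not pass without DMSO replicate 6 (adjusted p = 0.0683) or RG7112 replicate 1 (0.0666). ATM, which senses double-strand breaks, was 9.95 to 10.59 (median 10.32) under RG7112, 9.81 to 10.35 (median 10.23) under HDM201 and 9.74 to 10.39 (median 10.07) under DMSO. The 3 groups overlapped, and the changes of 0.21 under RG7112 (adjusted p = 0.313) and 0.12 under HDM201 (adjusted p = 0.637) did not pass. ATR, which senses single-stranded DNA, changed by -0.32 under RG7112 (95% interval -0.72 to 0.09) and by -0.27 under HDM201 (-0.68 to 0.14), and did not pass (adjusted p = 0.292 under RG7112 and 0.406 under HDM201).

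POLQ encodes the polymerase of theta-mediated end joining, a route that competes with recombination for resected ends. Its signal was 6.11 to 7.21 (median 6.49) under RG7112, 5.42 to 6.82 (median 6.41) under HDM201 and 7.81 to 8.29 (median 8.02) under DMSO. The groups with a compound did not reach the DMSO range. POLQ fell 2.703-fold under RG7112 (-1.43 ± 0.22 SE, adjusted p = 6.63e-05) and 3.26-fold under HDM201 (-1.71 ± 0.22 SE, adjusted p = 5.59e-06).

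A direct comparison of the compounds found 0 genes that passed in limma, among the 40 genes and among all 21448 probes, where 0% were called in either direction. The doses differ, 500 nM for HDM201 and 2 µM for RG7112, so the comparison is of these treatments. At an unadjusted p under 0.05, 8 of the 40 genes and 3.49% of all probes differed. The 8 genes were EXO1, BRIP1, UBE2T, XRCC2, BLM, RMI2, XRCC3 and RAD54L, all lower under HDM201. The lowest adjusted p of the 40 genes was 0.991. EXO1 had the largest difference, -0.59, with a 95% interval of -0.94 to -0.23 before any adjustment.

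The estimate was lower under HDM201 than under RG7112 for 30 of the 40 genes, as it was for 49% of all probes. The median difference was -0.12, and it was -0.06 without HDM201 replicate 3. Single differences ran from -0.59 for EXO1 to 0.22 for RAD50. The 95% intervals of the 40 genes lay between -0.94 and 0.51, with a median distance of 0.29 from estimate to bound. All 40 genes had overlapping arrays in the 2 groups, where arrays without overlap were found for 0.042% of all probes in each direction.

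Many other genes of the same pathways were lower too. A list of 70 further recombination, Fanconi, checkpoint and replication stress genes had 64 measured members. Under RG7112, 36 fell, 3 rose and 25 did not pass, with a median change of -0.37, where 9.61% of all probes fell and 7.9% rose. Under HDM201, 35 fell, 3 rose and 26 did not pass, with a median of -0.40, where 9.64% of all probes fell and 9.16% rose. The difference between the lists was not tested.

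CLSPN, the adaptor through which ATR activates CHEK1, had the largest fall of that list, -1.76 under RG7112 and -2.02 under HDM201. CDC25A, the phosphatase that CHEK1 marks for degradation, fell likewise, with changes of -1.57 under RG7112 and -1.89 under HDM201. The third largest fall was that of MCM8, a helicase of recombination, under RG7112 (-1.504) and that of TIMELESS, a fork protection protein, under HDM201 (-1.73). On the RG7112 arrays MCM8 was spread widely, from 7.17 to 9.87 (SD 1.01). Its change under RG7112 was -1.98 within replicates 1 to 3 and -1.03 within replicates 4 to 6. REV3L, the catalytic subunit of the translesion polymerase zeta, rose by 0.86 under RG7112 and by 0.93 under HDM201. RECQL5, an anti-recombination helicase, rose by 0.35 under RG7112 and by 0.42 under HDM201. RAD52 rose by 0.29 under RG7112 and FBH1, another anti-recombination helicase, by 0.32 under HDM201.

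End joining and single-strand break repair, the routes beside recombination, showed changes in both directions. Of 21 listed genes 18 were measured. Under RG7112, 7 fell, 3 rose and 8 did not pass, where 9.61% of all probes fell and 7.9% rose. Under HDM201, 9 fell, 3 rose and 6 did not pass, where 9.64% of all probes fell and 9.16% rose. The median change was -0.21 in each comparison. The largest falls were those of PARP2 (-1.002 under RG7112 and -1.27 under HDM201), PARP1 (-0.68 under RG7112 and -0.81 under HDM201) and NHEJ1 (-0.70 under RG7112 and -0.59 under HDM201). PARP1 and PARP2 sense strand breaks, and NHEJ1 bridges ends for ligation. LIG4, the ligase of end joining, rose by 0.71 under RG7112 and by 0.90 under HDM201. APTX and APLF, which process and scaffold breaks, rose by 0.59 and 0.43 under RG7112 and by 0.51 and 0.52 under HDM201.

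**Figure D4:**
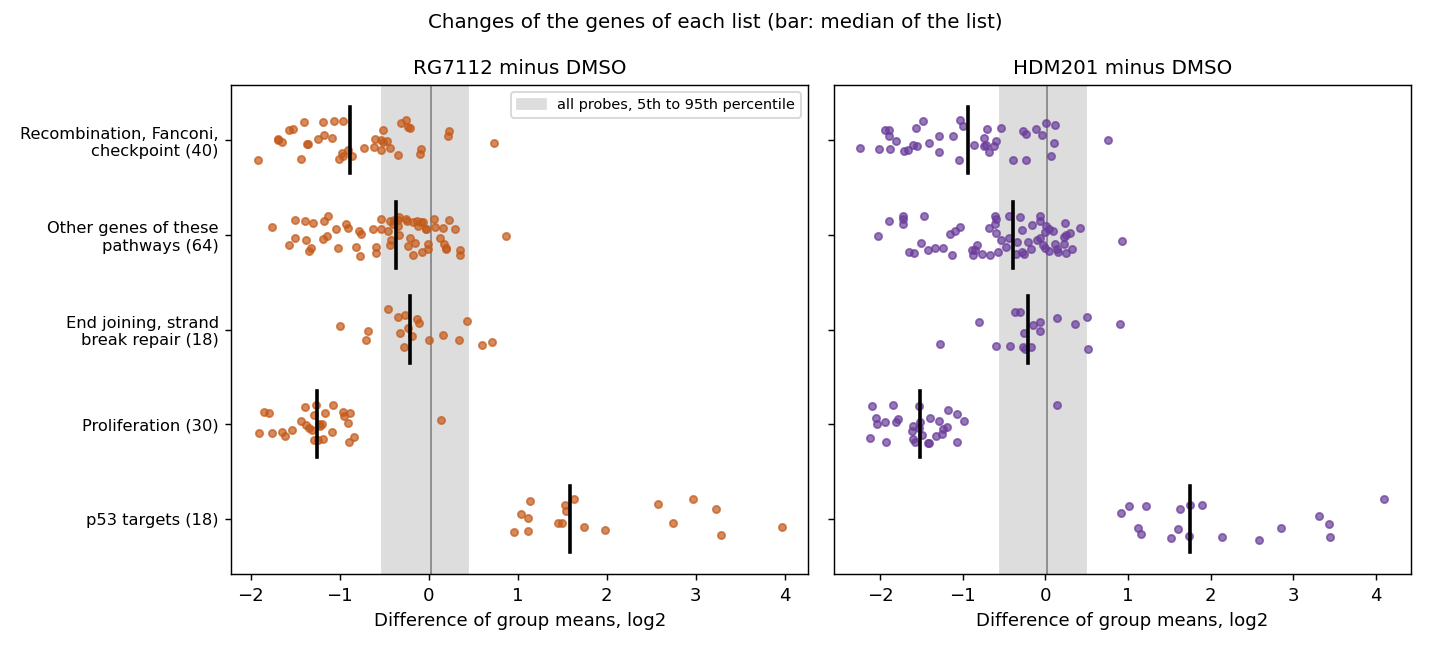
Difference of group means in log2 units for each gene of 5 lists, RG7112 minus DMSO on the left and HDM201 minus DMSO on the right; black bars are list medians and the grey band spans the 5th to 95th percentile of all probes. The 40 recombination, Fanconi and checkpoint genes (medians -0.89 under RG7112 and -0.93 under HDM201) lie between the other genes of these pathways (-0.37 and -0.40) and the proliferation genes (-1.25 and -1.52), and the p53 targets lie to the right (1.59 and 1.75).

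Genes of proliferation and targets of p53 moved on the same arrays. Of 30 proliferation genes 29 fell and 1 did not pass under each compound, where 9.61% of all probes fell under RG7112 and 9.64% under HDM201. The median change of the 30 genes was -1.25 under RG7112 and -1.52 under HDM201. Their mean signal per array was 7.90 to 8.65 under RG7112, 7.70 to 8.37 under HDM201 and 9.39 to 9.63 under DMSO. MKI67, a marker of cycling cells, changed by -1.16 under RG7112 and by -1.28 under HDM201. E2F1, which drives S phase genes, changed by -1.903 under RG7112 and by -2.05 under HDM201, and both passed. The mean signal of the 40 recombination, Fanconi and checkpoint genes was 7.28 to 7.71 under RG7112, 7.17 to 7.60 under HDM201 and 8.23 to 8.43 under DMSO.

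All 18 measured p53 target genes rose under each compound, where 7.9% of all probes rose under RG7112 and 9.16% under HDM201. The median change of the 18 genes was 1.59 under RG7112 and 1.75 under HDM201. CDKN1A rose by 3.97 under RG7112 and by 4.10 under HDM201, and MDM2 by 2.57 under RG7112 and by 2.58 under HDM201. The part of either group of genes in the falls described here was not tested. In bulk RNA, fewer cells in the phases that use these genes and less RNA per cell cannot be told apart.

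The spread between arrays was larger with a compound than with DMSO. The median SD of the 40 genes was 0.31 under RG7112, 0.23 under HDM201 and 0.14 under DMSO, where the medians over all probes were 0.22 under RG7112, 0.17 under HDM201 and 0.15 under DMSO. Taking for each array the median of the 40 genes after subtracting their DMSO means gave -1.01 to -0.68 on RG7112 arrays, -1.09 to -0.80 on HDM201 arrays and -0.15 to 0.07 on DMSO arrays. RG7112 replicate 3 had the lowest signal of its group for 21 of the 40 genes, HDM201 replicate 3 for 22 and DMSO replicate 1 for 18. These counts were not taken over all probes.

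RG7112 replicate 3 also stood apart over all probes. Its interquartile range was 3.45, against 3.70 to 3.91 on the other arrays, and its mean correlation with its group was 0.972, against 0.986 to 0.988 for the others. Without it 30 of the 40 genes fell under RG7112 and 1 rose, with a median change of -0.85. The medians of the 18 arrays were 6.44 to 6.57, and precision is limited by having 6 arrays in a group. Of the markers of the line, SPI1, CEBPA, LYZ and ANPEP had mean signals of 10.53, 9.96, 12.85 and 9.40, while KIT and MPO were low with 3.65 and 5.45, beside lowest array signals of 2.66 to 2.85. ITGAM had a mean of 7.31 and ran from 5.48 to 9.08 over the 18 arrays, and CD33 had no probe with its single symbol. Of 12 markers of lymphocytes, epithelium, fibroblasts, erythroid cells and megakaryocytes 10 were measured, with mean signals from 3.76 for MS4A1 to 8.32 for COL1A2. CD3D, EPCAM, CD3E and HBB had 3.92, 4.16, 4.90 and 4.99, and ITGA2B, COL1A1, CD79A and KRT8 had 6.36, 6.46, 6.91 and 7.97, so not all of these markers were low.

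Earlier results of these data had shown replicates 1 to 3 apart from replicates 4 to 6, and the sets were chosen with this known. The changes were therefore taken within each set. Under RG7112 the first set includes replicate 3, which stood apart over all probes, and the set difference was not taken without it. Under RG7112 the median change of the 40 genes was -0.89 within replicates 1 to 3 and -0.76 within replicates 4 to 6, and under HDM201 it was -1.02 within replicates 1 to 3 and -0.82 within replicates 4 to 6. The estimate was more negative within replicates 1 to 3 for 33 of the 40 genes under RG7112 (50.7% of all probes) and for 38 under HDM201 (51.1% of all probes). No single gene of the 40 passed the test of that difference in limma, where 0.0373% of all probes passed under RG7112 and 0.149% under HDM201. At an unadjusted p under 0.05 it was met by 4 of the 40 genes under RG7112 (6.1% of all probes) and 7 under HDM201 (6.13% of all probes).

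EXO1 changed by -1.80 within replicates 1 to 3 and by -1.51 within replicates 4 to 6 under RG7112, and by -2.56 within replicates 1 to 3 and by -1.92 within replicates 4 to 6 under HDM201. RAD51C changed by 0.80 within replicates 1 to 3 and by 0.66 within replicates 4 to 6 under RG7112, and by 0.84 within replicates 1 to 3 and by 0.69 within replicates 4 to 6 under HDM201. Its rise was thus present in each set. Between the DMSO arrays themselves, replicates 1 to 3 minus replicates 4 to 6 had a median of -0.01, with a range of -0.23 for RAD51B to 0.37 for FANCF, and 0 of the 40 genes passed in limma (0.303% of all probes did).

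**Figure D5:**
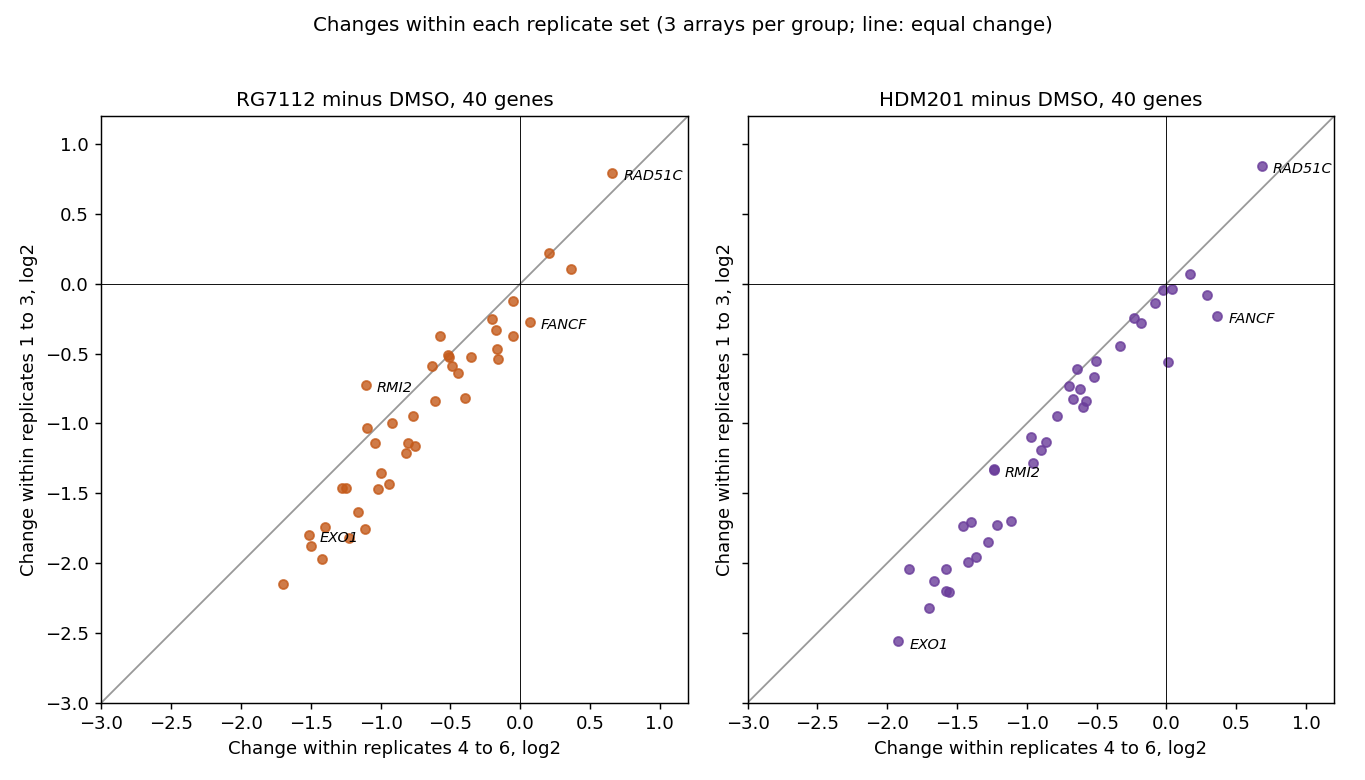
Change of each of the 40 genes within replicates 1 to 3 (vertical axis) against its change within replicates 4 to 6 (horizontal axis), in log2 units, for RG7112 minus DMSO on the left and HDM201 minus DMSO on the right; the grey line marks equal change. Points lie below the line for 33 genes under RG7112 and for 38 under HDM201, and RAD51C lies in the upper right of both panels.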

How the data were processed

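RNA from 18 OCI-AML3 samples was biotin-labelled (Affymetrix WT Pico) and hybridised to 18 arrays. The deposited log2 values were made by the authors with oligo and RMA, per the submitters' processing notes. For neither is a version given in the sources used here, nor is a genome build. RMA as usually run subtracts background, equalises the arrays' distributions and summarises the probes of a set, so a shift shared by all genes would not be seen. The distributions of the probes in the value table are close but not equal, with array medians of 6.44 to 6.57 and interquartile ranges of 3.45 to 3.91. What else was done to the values is not given in the sources used here. Samples were grouped by their labels.

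All 21448 probes entered 1 linear model in limma 3.58.1 (R 4.3.3) that estimates the 3 group means from the 18 arrays, with default empirical Bayes moderation and Benjamini-Hochberg adjustment over all probes at 0.05. Each compound was compared with DMSO, and HDM201 with RG7112. A gene was read by the probe with that single symbol in GEO's platform annotation and the highest mean. The script was tested on simulated data. The members and lists were chosen with earlier results of these data known, so the counts describe them and no list was tested.

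Within each role, values per array are given for the gene with the largest change against DMSO and for any gene that moved against the majority; ATM is added as a gene that did not pass, chosen after its values were seen. Of the further pathway and end joining lists the 3 largest changes in each direction that passed are named. Promoters are RefSeq windows on GRCh38.p14. Alternatives were another prior, array weights, filters on dim probes, probes with 1 symbol only, 2 scalings, a fit without the third group, a replicate block by number, the replicate sets, the mean over probes and leaving out each array. Same-numbered HDM201 and RG7112 arrays deviated together from their group means in 6 of 6 pairs, with correlations of 0.12 to 0.44 over probes. Of the 6 HDM201 arrays, 4 correlated best with the RG7112 array of their own number. The numbers come from the labels, which do not say what they mark.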

Additional observations from a re-analysis of the deposited data

Results flagged for a closer look

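Dixon's test for 1 value far from the other 5 was run in 120 sets of 6 arrays, 40 genes in 3 groups, and chance alone flags about 1 in 20 such sets. It marked 6 values. In the DMSO group RAD51B reached 7.49 on replicate 5, above the 6.39 to 6.79 of the other arrays. The other marks were low values on RG7112 replicate 3. They were PARPBP at 6.86 (7.58 to 7.88 on the other RG7112 arrays), RAD50 at 9.88 (10.72 to 10.92), NBN at 7.82 (8.43 to 8.66), FANCI at 5.18 (6.29 to 6.87) and TOPBP1 at 8.82 (9.46 to 9.81). Without that array PARPBP changed by -1.09, NBN by -0.32, FANCI by -1.29 and TOPBP1 by -0.87 under RG7112, and all 4 still passed in limma (adjusted p = 2.23e-06, 0.0133, 1.64e-05 and 2.15e-05). Why this array is low for these genes was not tested.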

How the results depend on the processing

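Across 31 other settings, 18 of them leaving out 1 array each, no change of a gene that passed turned its direction. Many of these settings could not alter a difference of group means. Another prior, filters on probes, the replicate block and the replicate set as a term all keep it. So do the fit without the third group and leaving out an array of that group. There only the p of a gene could move. The mean over probes repeats the main fit, because each gene has 1 probe. The number of genes that fell under RG7112 was 29 to 32 when 1 array was left out and 25 to 32 in the 13 remaining settings, and under HDM201 it was 29 to 31 and 27 to 31. The lowest counts, 25 under RG7112 and 27 under HDM201, came from fits within 1 replicate set, which hold 3 arrays per group. RAD51C rose under both compounds in every setting, and HDM201 against RG7112 gave 0 genes in every setting. The median change stayed between -0.96 and -0.76 under RG7112 and between -1.03 and -0.82 under HDM201.

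With the replicate number as a block, 30 genes fell and 1 rose under RG7112, 30 fell and 1 rose under HDM201, and 0 differed between the compounds. SLX4 under RG7112 lost its call in that fit (adjusted p = 0.0513), and the block changed no other call. Same-numbered arrays correlated by 0.02 to 0.37 between RG7112 and DMSO and by 0.08 to 0.30 between HDM201 and DMSO, over 0.1 in 5 of 6 pairs each, and 5 of 6 correlated best with their own number. The samples of these comparisons thus share a number, and nothing more is known.

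Further calls were lost within the replicate sets, which hold 3 arrays per group. Within replicates 1 to 3 under RG7112, RMI2 changed by -0.72 (adjusted p = 0.0834), FANCL by -0.59 (0.0702), NBN by -0.52 (0.144), EME1 by -0.37 (0.382) and CHEK2 by -0.51 (0.192). Under HDM201 in that set NBN changed by -0.44 (0.221) and EME1 by -0.61 (0.148). Within replicates 4 to 6 under RG7112, RAD51B changed by -0.61 (0.161), NBN by -0.36 (0.0551) and CHEK2 by -0.52 (0.119). Under HDM201 in that set RAD51B changed by -0.69 (0.0988), NBN by -0.33 (0.0657) and CHEK2 by -0.58 (0.0726). SLX4 under RG7112 passed in neither set. Among other settings, EME1 missed the threshold under RG7112 after a further quantile normalization (adjusted p = 0.0772). RAD51D passed under both compounds when each array's median was subtracted (0.0207 under RG7112 and 0.0228 under HDM201), after that normalization (0.0468 under RG7112 and 0.0362 under HDM201) and without the lower-signal 50% of the probes (0.0370 under RG7112 and 0.0304 under HDM201). The median difference between HDM201 and RG7112 was -0.15 to -0.06 when 1 array was left out, and -0.15 to -0.08 in the remaining settings. Why calls and medians differed between settings was not tested.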
